A study of Caenorhabditis elegans with 12 samples.

Results

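The genes orc-2 (WBGene00003882) and alh-2 (WBGene00000108) were examined as single-gene gains of H3K9me3 in C. elegans germline nuclei. They are 2 of the 46760 genes in the deposited counts. orc-2 was chosen for its higher count in hrde-2 mutants than in wild-type animals, and alh-2 for its higher count in hrde-1 mutants, both as strong gains lying outside blocks of neighbouring genes that moved together. The contrast that chose each gene, and the comparison between the 2 mutants, which uses the same libraries, are therefore given as descriptions with no test. Tests are given for the contrast that did not choose the gene, orc-2 in hrde-1 mutants and alh-2 in hrde-2 mutants. These still share the wild-type libraries with the contrasts used for the choice.

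H3K9me3, trimethylation of lysine 9 of histone H3, marks silenced chromatin. In the C. elegans germline HRDE-1, a nuclear Argonaute protein, carries 22G-RNAs to nascent transcripts, and H3K9me3 is deposited at its target genes. HRDE-2 acts with HRDE-1 in the choice of the small RNAs it carries. ORC-2 is a subunit of the origin recognition complex, which binds DNA where replication starts and loads the MCM helicase with CDC-6 and CDT-1. ALH-2 belongs to the aldehyde dehydrogenases, enzymes that oxidise aldehydes to carboxylic acids.

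The series holds 12 CUT&Tag libraries, in which a transposase tethered by an antibody tags the DNA nearby. They come from wild-type animals (strain N2), hrde-1(tm1200) III mutants (USC661) and hrde-2/enri-3(qe20) V mutants (FD53), all day 1 adults grown at 20 °C. Each genotype gave 3 H3K9me3 libraries and 1 IgG library, and the methods state that the negative control had no primary antibody. Each library was made from the germline nuclei of a large pooled population, although the sample labels name whole worms as the source, and the labels call the triplicates biological. Each mutant is 1 allele in 1 strain. In the study's own panel the antibody also bound H3K27me3 and H4K20me3, so counts called H3K9me3 may hold those marks.

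The H3K9me3 libraries held between 1470699 counts (wild-type replicate 2) and 8719542 counts, and the IgG libraries between 13950 and 233980. Levels are given as CPM, the count of a gene scaled by the total of its library, and n is 3 libraries a genotype. Nuclear rRNA genes made up 13.2% to 24.6% of the H3K9me3 totals, most in wild-type replicate 3. The mutated genes gave no check of the genotypes, since every H3K9me3 library had at least 83.1 CPM over hrde-1 and at least 17.4 CPM over hrde-2. No 2 replicates agreed within sampling noise, with a chi-square per degree of freedom of 2.67 or more. All 8 germline marker genes had counts. Their mean level ran from 21.0 to 23.5 CPM per kb in wild-type, from 20.8 to 26.0 among the hrde-1 libraries and from 28.9 to 31.5 among the hrde-2 libraries, which did not overlap wild-type. All of the body wall muscle, intestine, hypodermis and neuron markers also had counts, and in each list the hrde-2 and wild-type ranges overlapped. Muscle had 46.7 to 53.8 CPM per kb in wild-type and 46.1 to 55.6 in hrde-2 libraries. Intestine had 22.9 to 26.3 and 22.4 to 23.9, hypodermis 28.0 to 37.7 and 31.8 to 32.4, and neurons 14.9 to 18.5 and 17.5 to 19.3. The median gene tested had 21.4 and 23.0. The share of all genes that did not overlap is not given here. As all these values are counts of a chromatin mark, they are no check of which genes the nuclei express.

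orc-2 lies on the plus strand of chromosome II from 10873931 to 10877934 (WS258 coordinates), 71.2% of the way along the chromosome, and has 6 exons of 1916 bases in all. Of these, 1293 are coding and 620, or 32.4%, lie in the 3′ UTR. alh-2 lies on the plus strand of chromosome V from 1644169 to 1647728, 7.86% of the way along, and has 7 exons of 1641 bases, of which 1545 are coding. No other listed gene overlaps either of them. Only fragments assigned to exons were counted. None of the 1622 stretches of 50 bases in the orc-2 exons, and none of the 1298 in the alh-2 exons, occurred elsewhere in the WBcel235 genome. The closest relative of alh-2 found by blastn was alh-1, with 73.0% identity over 1077 bases, and orc-2 had no hit elsewhere.

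The sequence before each gene is shown because it separates the gene from a neighbour on the same strand that was not called changed. The whole gap between copz-1 and orc-2, 134 bases at chrII:10873797-10873930, and the 250 bases before alh-2, at chrV:1643919-1644168, are written 5′ to 3′ on the plus strand of WBcel235, with every TTTCAG in capitals. This motif matches the usual end of a C. elegans intron and of a trans-splice acceptor site.

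copz-1 to orc-2 gap: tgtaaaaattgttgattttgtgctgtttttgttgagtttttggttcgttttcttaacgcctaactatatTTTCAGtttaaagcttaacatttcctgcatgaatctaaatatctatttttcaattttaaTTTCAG

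alh-2 upstream: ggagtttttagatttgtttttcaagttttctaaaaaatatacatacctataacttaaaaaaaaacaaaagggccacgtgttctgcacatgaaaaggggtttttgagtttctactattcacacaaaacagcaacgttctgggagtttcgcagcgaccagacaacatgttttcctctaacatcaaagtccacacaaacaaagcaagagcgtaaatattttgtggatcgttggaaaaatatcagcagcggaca

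TTTCAG occurred 2 times in the copz-1 to orc-2 gap, once at its very end, directly before the annotated start of orc-2. It did not occur in the window before alh-2. Neither window held it on the minus strand. Among the windows of the same length before 19700 protein-coding genes, 24.6% held the motif on the gene's strand and 31.4% on either strand at 134 bases, against 32.3% and 44.5% at 250 bases, and 12.9% ended in it. GC content was 26.1% in the gap and 36.4% before alh-2. These windows lie outside exons and have no count of their own, though fragments counted at an exon beside them may reach into them.

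orc-2 had 13.1, 10.9 and 8.72 CPM in the 3 wild-type libraries. In hrde-1 mutants it had 12.6, 16.0 and 15.7 CPM. In hrde-2 mutants it had 36.9, 40.8 and 39.7 CPM. The hrde-2 libraries all lay above every other H3K9me3 library. At this scaling by total counts, 1 hrde-1 library lay within the wild-type range. Behind these levels were 90, 16 and 76 counts for wild-type, 84, 133 and 136 for the hrde-1 libraries and 231, 285 and 253 for the hrde-2 libraries.

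The mean of orc-2 was 10.9 ± 2.18 CPM (SD, n = 3) for wild-type, 14.7 ± 1.88 without HRDE-1 and 39.2 ± 2.00 without HRDE-2. In the edgeR fit over all genes the log2 fold change in hrde-2 mutants against wild-type was 1.76 ± 0.18 (SE), or 3.38-fold (95% interval 2.62 to 4.36), which is the contrast that chose the gene. More nuclei with the mark and more mark in each nucleus cannot be told apart in these pooled samples. The germline marker genes were also higher in the hrde-2 libraries, as given above, and the part of this in the orc-2 value was not tested.

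For orc-2 in hrde-1 mutants, the contrast that did not choose it, the log2 fold change was 0.44 ± 0.19 (SE; 95% interval 0.05 to 0.82), which did not pass the test (edgeR quasi-likelihood, Benjamini-Hochberg adjusted p = 0.36). In this contrast 0.188% of the 28691 genes tested were called higher and 0.572% lower. The exact two-sided permutation test on the CPM gave p = 0.2, where 0.1 is the smallest p that 3 libraries against 3 can give. These CPM rest on total counts. The edgeR fit also used scaling factors, 1.05 for wild-type replicate 1 and 0.932 for hrde-1 replicate 1. With these factors hrde-1 replicate 1 would lie above wild-type replicate 1, so the permutation p depends on the scaling. Between the mutants, orc-2 was higher in hrde-2 than in hrde-1 mutants by 1.32 ± 0.16 on the log2 scale.

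In wild-type alh-2 had 17.3, 18.4 and 8.49 CPM. In hrde-1 mutants it had 32.9, 38.2 and 38.8 CPM. In hrde-2 mutants it had 16.6, 17.5 and 11.3 CPM. The hrde-1 libraries all lay above every other H3K9me3 library, and the hrde-2 and wild-type ranges overlapped, with all of the hrde-2 values inside the wild-type range. The counts behind these levels ran from 27, in wild-type replicate 2, to 337, in hrde-1 replicate 3.

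The mean of alh-2 was 14.7 ± 5.42 CPM (SD, n = 3) for wild-type, 36.7 ± 3.23 without HRDE-1 and 15.1 ± 3.35 without HRDE-2. In hrde-1 mutants against wild-type, the contrast that chose it, the log2 fold change was 1.43 ± 0.20 (SE), or 2.69-fold (95% interval 2.04 to 3.55). Wild-type replicate 3, at 8.49 CPM, was the lowest of the 9 libraries, and without it the log2 fold change was 1.14 ± 0.21. The mitochondrial share of the counts was also higher in the hrde-1 libraries, at 2.39% to 3.24%, than in wild-type, at 1.15% to 1.80%. With library sizes that left out rRNA and mitochondrial genes the log2 fold change of alh-2 was 1.42 ± 0.20. That fit still used TMM scaling, which largely cancels a change of library size, so it is no test of the mitochondrial share. The part of this share in the alh-2 value was not tested.

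For alh-2 in hrde-2 mutants the log2 fold change was 0.06 ± 0.21 (SE; 95% interval -0.36 to 0.49), which did not pass the test (edgeR quasi-likelihood, Benjamini-Hochberg adjusted p = 0.960). In this contrast 0.185% of the genes tested were called higher and 0.31% lower. The exact two-sided permutation test on the CPM gave p = 0.9. The interval leaves room for a change of up to 1.40-fold upward. Without wild-type replicate 3 the estimate was -0.22 and did not pass either. alh-2 was lower in hrde-2 than in hrde-1 mutants by 1.37 on the log2 scale, with an SE of 0.18.

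**Figure D1:**
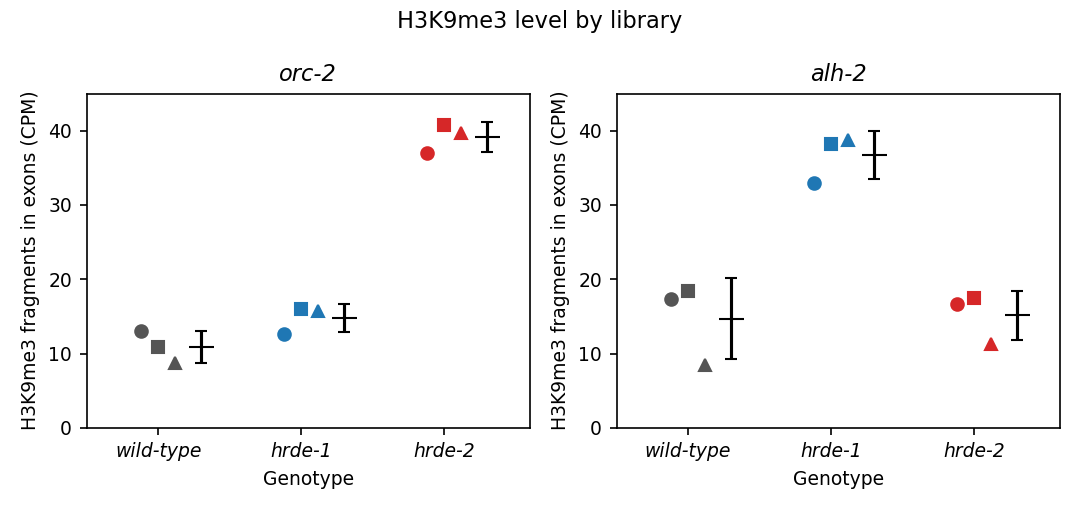
H3K9me3 fragments in the exons of orc-2 (left) and alh-2 (right), in CPM on a linear axis, for the 3 libraries of each genotype (circle, replicate 1; square, replicate 2; triangle, replicate 3), with the mean and SD in black. The hrde-2 libraries stand apart for orc-2, at 36.9 to 40.8 CPM, and the hrde-1 libraries for alh-2, at 32.9 to 38.8 CPM.

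Per exon length, both genes were among the lowest in wild-type, whose libraries entered the choice of each gene. A low wild-type level raises a fold change, so the choice favours it. orc-2 had 5.68 ± 1.14 CPM per kb (SD, n = 3), at percentile 2.13 of the genes tested, and alh-2 had 8.97 ± 3.30, at percentile 9.01. The median gene tested had 21.4 CPM per kb in wild-type. In hrde-2 mutants orc-2 had 20.4 ± 1.04 CPM per kb, at percentile 42.7, where the median gene had 23.0. In hrde-1 mutants alh-2 had 22.3 ± 1.97 CPM per kb, at percentile 52.7, where the median gene had 21.4. In the mutant that did not choose it, orc-2 was at percentile 5.35 in hrde-1 mutants and alh-2 at percentile 6.90 in hrde-2 mutants.

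In the IgG libraries orc-2 had 1 count in wild-type, 1 in the hrde-1 library and 0 in the hrde-2 library. alh-2 had 1, 0 and 0. Over the 3 IgG libraries together these are 2 and 1 of 285547 counts, or 7.00 CPM (Wilson 95% interval 1.92 to 25.5) and 3.50 CPM (0.618 to 19.8). The wild-type and hrde-1 levels of orc-2 and the wild-type and hrde-2 levels of alh-2 lie within these intervals. The wild-type library gave 233980 of the pooled IgG counts, so they stand mainly for wild-type. The IgG libraries of the mutants themselves were too shallow for this comparison, as the 0 of 13950 counts for orc-2 in the hrde-2 library allows up to 215 CPM at the limit of 3 counts and the 0 of 37617 for alh-2 in the hrde-1 library up to 79.8 CPM. The intervals and floors cover counting error only, since PCR copies are not independent molecules.

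The 5 nearest listed genes to the left of orc-2 were copz-1, cyn-4, cap-2, gmps-1 and cel-mir-2216, and those to the right were lurp-1, egg-3, F44F4.3, 21ur-13748 and ptr-8. They reach 11345 bases from orc-2. cel-mir-2216 lies within gmps-1, cap-2 overlaps cyn-4 and lurp-1 overlaps egg-3 on opposite strands, and the counting used no strand, so counts of such pairs may be shared. Of the 10 genes, 9 passed the filter on low counts. The piRNA gene 21ur-13748 did not, with at most 3 counts in any library.

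copz-1, which encodes a subunit of the COPI vesicle coat and whose end lies 134 bases before orc-2, had 13.9, 12.9 and 7.34 CPM in wild-type and 14.5, 11.7 and 13.2 CPM in hrde-2 mutants. Its ranges overlapped, and the log2 fold change was 0.18 ± 0.25 (SE) where that of orc-2 was 1.76. In hrde-1 mutants it had 10.0, 9.74 and 13.6 CPM, with a log2 fold change of 0.03 ± 0.25. On the other side lurp-1, at 2991 bases, had a log2 fold change of -0.00 ± 0.36 in hrde-2 mutants, and egg-3, needed for the oocyte-to-embryo transition, had 0.04 ± 0.14. ptr-8, a patched-related gene, had -0.00 ± 0.14.

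The exception among the neighbours of orc-2 was gmps-1, the GMP synthetase gene 5217 bases away. It had 48.8, 35.4 and 40.9 CPM in wild-type, 52.3, 61.8 and 67.8 CPM in the hrde-1 libraries and 65.5, 67.3 and 65.8 CPM in the hrde-2 libraries. Both mutants lay above wild-type without overlap. The log2 fold change was 0.49 ± 0.13 (SE) in hrde-1 mutants, which missed the threshold (edgeR, adjusted p = 0.0737), and 0.52 ± 0.13 in hrde-2 mutants, given as a description. The hrde-1 value passed in 2 of 19 alternatives, those with no filter on low counts and with a replicate block, and its adjusted p in edgeR or DESeq2 ran from 0.0466 to 0.933 over them. cel-mir-2216, inside it, had 0.229 to 2.04 CPM in every H3K9me3 library, too few for a fold change to be read.

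Of the 9 tested neighbours of orc-2, 0 were called in hrde-1 mutants, where 0.188% of all genes tested were called higher, and DESeq2 also called 0. Only gmps-1 had an unadjusted p under 0.05, a mark reached by 11% of all genes tested without HRDE-1 and 9.3% without HRDE-2. Their log2 fold changes ran from -0.07 to 0.66 with a median of 0.17, beside 0.01 for all genes tested. In hrde-2 mutants, the contrast from which blocks had been excluded in choosing orc-2, 0 of the 9 were called by edgeR and 1, gmps-1, by DESeq2. Other edgeR settings also called gmps-1 there, namely total counts alone, no filter on low counts and a minimum count of 50. So did a replicate block and TMM on the 10% of genes with most counts per kb. The values of the 9 ran from -0.00 to 0.75 with a median of 0.10. Within 50 kb on either side, 28 genes were tested and edgeR called 0 in either mutant, with 3 at an unadjusted p under 0.05 without HRDE-1 (11% of all genes) and 1 without HRDE-2 (9.3% of all genes), and DESeq2 called only gmps-1, in hrde-2 mutants. The highest of them in hrde-2 mutants was M106.7, at 0.84, which had only 219 counts over the 9 libraries.

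The nearest genes to the left of alh-2 were Y46H3D.1, str-221, str-222, irld-17 and Y46H3D.8, and those to the right were irld-45, irld-44, irld-11 and the pseudogenes WBGene00019384 and WBGene00019390, the farthest 12921 bases away. The str genes encode members of the chemoreceptor families, and the irld genes encode proteins with domains like those of the insulin and EGF receptors. All 10 passed the filter. Such genes occur in families, so counts may be split among similar copies.

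irld-45, 572 bases after alh-2, had 32.3, 33.3 and 27.3 CPM in wild-type and 23.1, 31.7 and 26.8 CPM in hrde-1 mutants. The ranges overlapped, and the log2 fold change was -0.18 ± 0.16 (SE) where that of alh-2 was 1.43. Y46H3D.1, 1048 bases before alh-2, had 6.54, 2.04 and 5.73 CPM in wild-type and 5.39, 5.89 and 4.72 CPM in hrde-1 mutants, with a log2 fold change of -0.05 ± 0.34. In CPM from total counts, irld-44 was the only one of the 10 whose hrde-1 libraries all lay above the wild-type libraries. They had 28.0, 21.9 and 22.7 CPM, and the highest wild-type library, replicate 3, had 21.3 CPM. The scaling factors of the edgeR fit were 0.877 for wild-type replicate 3 and 1.05 for hrde-1 replicate 2. With these factors the 2 libraries would change order, so the separation depends on the scaling. The log2 fold change of irld-44 was 0.25 ± 0.18, and it was not called. Full separation of 3 libraries from 3, in either direction, has an exact two-sided permutation p of 0.1. Finding 1 such gene among 10 is therefore no sign of a shared change. The share of all genes tested that separated in this way is not given here.

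Of the 10 neighbours of alh-2, 0 were called in hrde-2 mutants, where 0.185% of all genes tested were called higher, and 0 had an unadjusted p under 0.05 in edgeR or were called by DESeq2. Their log2 fold changes ran from -0.19 to 0.17 with a median of -0.07. In hrde-1 mutants, where blocks had been excluded in choosing alh-2, 0 were called and the values ran from -0.41 to 0.25 with a median of -0.06. Within 50 kb, 35 genes were tested. Of all genes tested, 0.572% were called lower without HRDE-1 and 0.31% without HRDE-2. Both contrasts use the same wild-type libraries, so calls in them are not independent. Among the 35 genes, none was called higher, and 1 was called lower in both mutants. That gene was Y46H3C.7, 44298 bases away and named after its values were seen, which fell by 0.57 ± 0.12 on the log2 scale in hrde-1 mutants (edgeR, adjusted p = 0.0111) and by 0.56 ± 0.12 in hrde-2 mutants (edgeR, adjusted p = 0.0206).

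**Figure D2:**
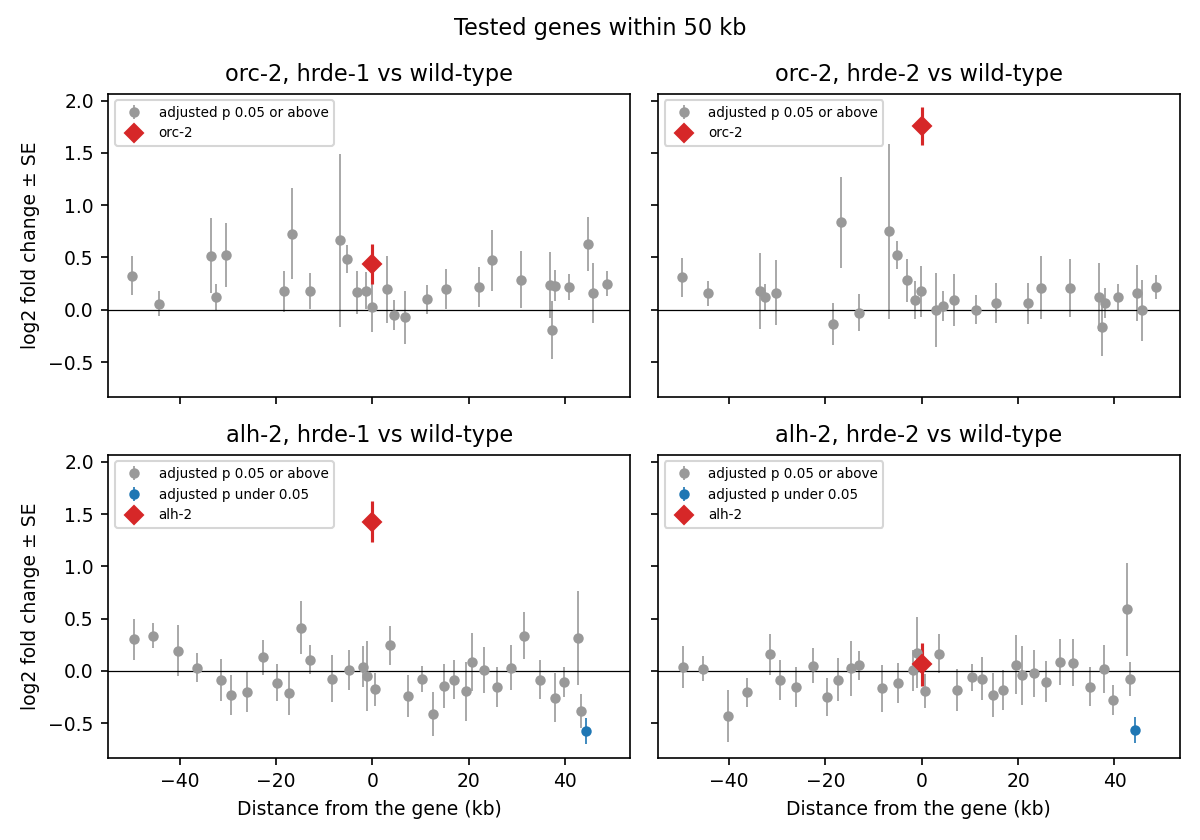
Log2 fold change against wild-type (vertical axis, bars are SE) of the tested genes within 50 kb of orc-2 (top) and alh-2 (bottom), by distance from the gene in kb, in hrde-1 mutants (left) and hrde-2 mutants (right), with the gene itself as a red diamond. orc-2 stands at 1.76 in hrde-2 mutants and alh-2 at 1.43 in hrde-1 mutants, above every other gene drawn in those panels, and the blue point is Y46H3C.7.

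Set against its own neighbours, which cancels the scaling of the libraries, orc-2 had 6.15%, 5.93% and 4.88% of the summed count of its 10 neighbours in wild-type. It had 6.14%, 7.03% and 6.96% without HRDE-1 and 15.5%, 16.6% and 17.9% without HRDE-2. The hrde-2 values lay above all others. The means were 5.65% ± 0.676, 6.71% ± 0.496 and 16.7% ± 1.16 (SD, n = 3), and between hrde-1 mutants and wild-type the exact two-sided permutation test gave p = 0.2.

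alh-2 had 6.15%, 6.43% and 3.50% of the summed count of its neighbours in wild-type, 13.1%, 13% and 15.7% without HRDE-1 and 6.14%, 6.08% and 4.06% without HRDE-2. The hrde-1 values lay above all others and the rest overlapped. The means were 5.36% ± 1.62, 13.9% ± 1.53 and 5.42% ± 1.18 (SD, n = 3), and the exact two-sided permutation test between hrde-2 mutants and wild-type gave p = 1.0. In the wild-type IgG library orc-2 had 1 count beside 41 for its neighbours, and alh-2 had 1 beside 36. Of the 41, 15 were in cap-2 and 11 in gmps-1, and of the 36, 15 were in WBGene00019384. The 15 in cap-2 make 64.1 CPM, beside at most 21.9 CPM in any H3K9me3 library. The summed neighbours of orc-2 had 175 CPM there, beside a mean of 192 CPM in the wild-type H3K9me3 libraries. Those of alh-2 had 154 CPM, beside 270. Neighbours had at most 5 counts in all in each mutant IgG library, so no share was read there.

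**Figure D3:**
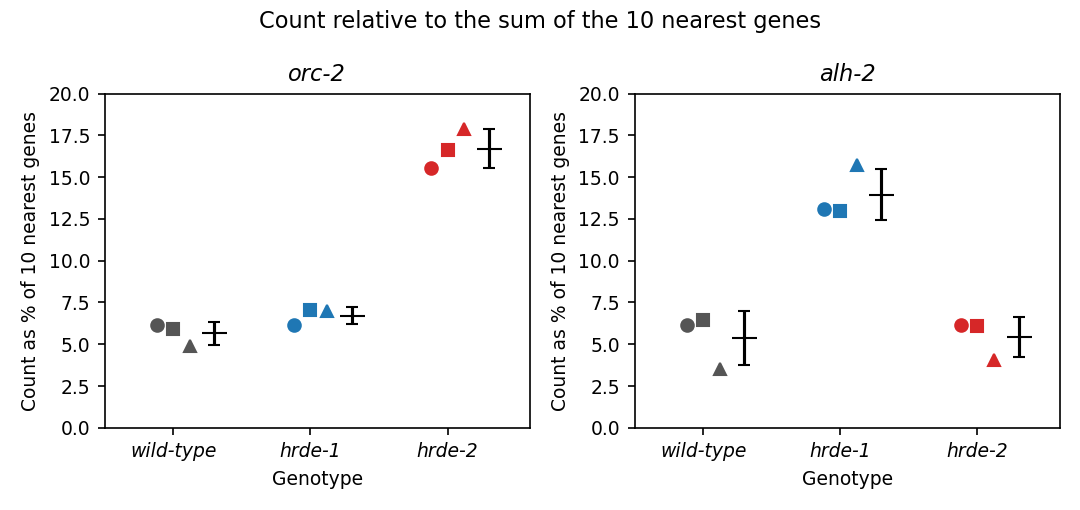
Count of orc-2 (left) and alh-2 (right) as a percent of the summed count of the 10 nearest genes, for the 3 H3K9me3 libraries of each genotype, with the mean and SD in black. The order of the genotypes is that of the CPM values, with orc-2 at 15.5% to 17.9% in hrde-2 mutants and alh-2 at 13% to 15.7% in hrde-1 mutants.

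A block was a run of 3 or more calls of the same sign, each parted from the next by no more than 2 tested genes. Of the 53 genes called higher in hrde-2 mutants, 41 lay in no block, and orc-2 had the largest log2 fold change of these. The gene ranked next, C04F12.16, had 1.14 ± 0.26 (SE), and only these 2 exceeded 1. Counting genes in blocks and genes not called, 31 genes had a larger value than orc-2. Of the 54 genes called higher in hrde-1 mutants, 28 were mitochondrial and 17 lay in no block. By log2 fold change alh-2 ranked 3 of these 17. It came after the piRNA gene 21ur-5149 (2.63 ± 0.65) and the snoRNA gene R166.7 (1.91 ± 0.48) and before the non-coding gene B0365.10 (1.21 ± 0.26). Counting genes in blocks and genes not called, 62 genes had a larger value than alh-2. 21ur-5149 rested on 120 counts over the 9 libraries, R166.7 on 231 and B0365.10 on 675, against 1393 for alh-2. These values belong to the choice of the genes and carry no test.

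Across the 9 H3K9me3 libraries, the genes whose log2 CPM was most like that of orc-2 were F54E12.2 (Pearson r = 0.978), cec-6 (0.974), srw-89 (0.968), Y74C10AR.2 (0.968) and tebp-2 (0.965). cec-6 encodes a chromodomain protein and tebp-2 a protein that binds telomeric DNA. In hrde-2 mutants the log2 fold change was 0.85 ± 0.13 (SE) for cec-6, 0.89 ± 0.13 for tebp-2, 2.73 ± 0.18 for Y74C10AR.2, 0.34 ± 0.13 for F54E12.2 and 0.65 ± 0.20 for srw-89.

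The genes most like alh-2 were fard-1 (r = 0.980), the pseudogene WBGene00077568 (0.949), vps-54 (0.945), 21ur-14137 (0.945) and srx-93 (0.943). fard-1 encodes a fatty acyl-CoA reductase of ether lipid synthesis, and its log2 fold change was 0.92 ± 0.15 (SE) without HRDE-1 and -0.08 ± 0.16 without HRDE-2. The pseudogene had 0.68 ± 0.19, vps-54 had 0.23 ± 0.13, srx-93 had 0.24 ± 0.25 and the piRNA gene 21ur-14137 had 1.79 ± 0.75 in hrde-1 mutants. These coefficients are descriptions over 9 libraries in 3 genotypes, picked from 28691 genes, and genes from the same libraries share their depth.

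The other genes of origin licensing were read from a list of 14, holding the 5 orc genes, cdc-6, cdt-1, its inhibitor gmn-1 and mcm-2 to mcm-7. Of the 13 besides orc-2, all were tested and 0 were called in either mutant by edgeR, and 4 of them without HRDE-2 and 0 without HRDE-1 had an unadjusted p under 0.05, beside 9.3% and 11% of all genes tested. DESeq2 called 1 gene, mcm-6, without HRDE-2. In hrde-2 mutants, where 0.185% of all genes were called higher, their log2 fold changes ran from -0.04 to 0.54, with a median of 0.24 beside 0.00 for all genes tested, and 12 of 13 were above 0. The median in hrde-1 mutants was 0.04. The germline markers were also higher in the hrde-2 libraries, at 28.9 to 31.5 CPM per kb beside 21.0 to 23.5 in wild-type, and the part of this in these values was not tested.

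mcm-6, a subunit of the replicative helicase, had the largest value in hrde-2 mutants, 0.54 ± 0.14 (SE), which did not pass the threshold (edgeR, adjusted p = 0.0594). It passed in 7 of 19 alternatives, over which its adjusted p in edgeR or DESeq2 ran from 0.00573 to 0.759. The log2 fold change of mcm-4 was 0.44 ± 0.12 (edgeR, adjusted p = 0.111). Of the other origin recognition subunits, orc-1 had 0.02 ± 0.18, orc-3 had 0.39 ± 0.16, orc-4 had 0.46 ± 0.32 and orc-5 had 0.42 ± 0.22, all short of the 1.76 of orc-2. In level per length, orc-4 was the lowest of the list in wild-type, at 4.86 CPM per kb, followed by orc-2 at 5.68, and mcm-7 the highest at 42.3. The wild-type level of orc-2 was part of its choice.

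The aldehyde dehydrogenase genes were read from the 13 genes named alh. Of the 12 besides alh-2, all were tested and 0 were called in either mutant by edgeR or DESeq2. In hrde-1 mutants, where 0.188% of all genes were called higher, their log2 fold changes ran from -0.04 to 0.33 with a median of 0.11 beside 0.01 for all genes tested, and 2 had an unadjusted p under 0.05, beside 11% of all genes tested. The largest was alh-9, at 0.33 ± 0.15 (SE; edgeR, adjusted p = 0.372). alh-1, the closest in sequence, had 0.17 ± 0.16 without HRDE-1 and -0.05 ± 0.16 without HRDE-2. alh-2 had the lowest level per length of the 13 in wild-type, 8.97 CPM per kb, where the others ran from 16.4 to 39.0. This wild-type level was part of its choice.

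**Figure D4:**
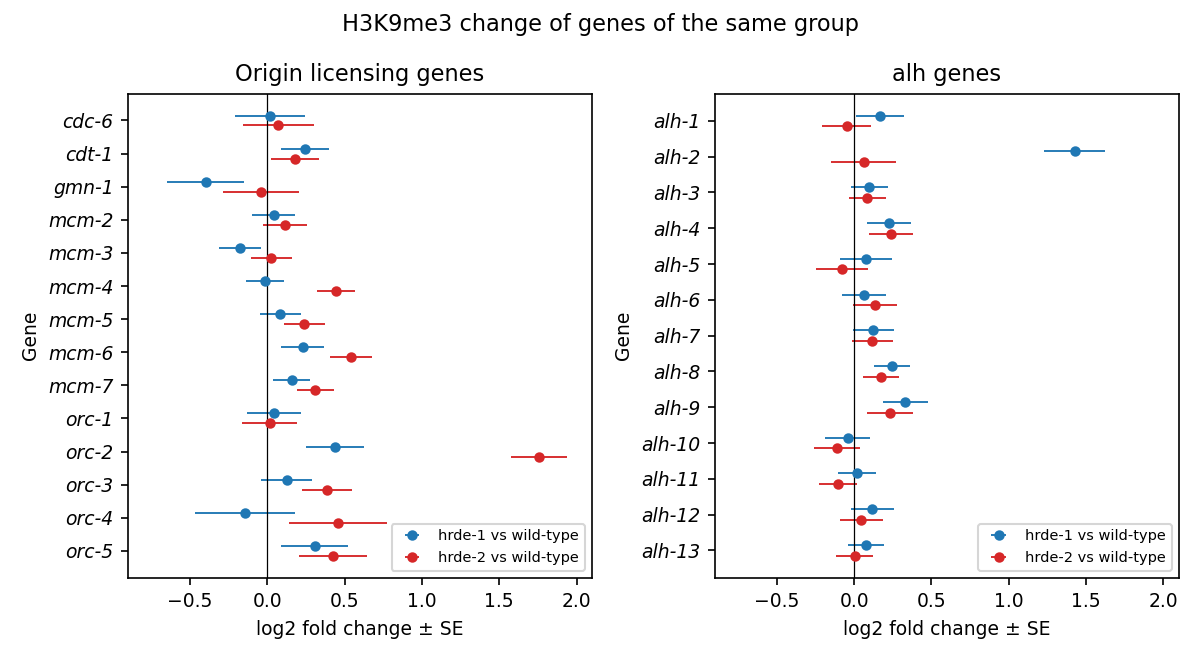
Log2 fold change against wild-type (horizontal axis, bars are SE) of the 14 origin licensing genes (left) and the 13 alh genes (right) with hrde-1 mutants in blue and hrde-2 mutants in red. Besides orc-2 at 1.76 and alh-2 at 1.43, the largest values drawn are mcm-6 at 0.54 in hrde-2 mutants and alh-9 at 0.33 in hrde-1 mutants.

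The 2 genes also differed in their place among gene sets that the study drew from small RNAs bound to HRDE-1, made from other samples. orc-2 is in the set from mut-2 mutants (965 genes). It is also in the set from animals that lack both mut-2 and hrde-2 (590 genes). Its neighbours gmps-1, cap-2 and cyn-4 are in the second of these sets, and F44F4.3 in the first. alh-2 and its neighbours are in neither, like most of the 46760 genes listed. The study also drew such sets from wild-type animals and from hrde-2 mutants, which were not read here. Absence from the sets read does not show that a gene is no target of HRDE-1. Neither gene is in the sets with higher mRNA in hrde-1 mutants (186 genes) or in hrde-2 mutants (1063 genes). Whether their mRNA was lower was not read.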

How the data were processed

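The deposited values are whole-number counts of fragments per gene, made by the authors with featureCounts (Subread 2.0.1, per the file headers) from paired-end alignments made with Bowtie2 2.5.0. Fragments were assigned to exons of the WS258 genes and summed by gene without use of strand, and the removal of duplicates is not given in the sources used here. A fragment that fits several copies may be placed at any of them. Gene IDs were looked up in Ensembl release 115 for symbols and gene types, and 46564 of 46760 were found. Sequence was read from the WBcel235 genome, whose letters gave GT and AG ends to 98.3% of 67267 introns at the deposited coordinates.

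The quasi-likelihood F-test of edgeR 4.0.16 (R 4.3.3, TMM scaling) was run on 28691 genes kept by filterByExpr at a minimum count of 10, in a single fit of the 9 H3K9me3 libraries with no block. Benjamini-Hochberg adjustment ran over all genes tested, with 0.05 as the threshold. The code was tested on simulated data. CPM were computed from total counts. A count of 0 was taken to allow 3 counts. No spike-in entered the scaling, so all values are relative to the rest of a library. Exact permutation tests used SciPy 1.17.1, and related sequences were sought with blastn 2.17.0.

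The members and the lists were chosen with earlier results of these data known. The genes named were the members, the 5 nearest genes on each side, the 5 genes most like each member by Pearson r of log2 CPM, list genes called, and the gains in no block ranked next to each member. Family members given for comparison, genes at the ends of a range and Y46H3C.7 fall outside this rule and were named after their values were seen. The alternatives were other scalings, filters and samples, DESeq2 1.42.0, thinning and a replicate block.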

Additional observations from a re-analysis of the deposited data

How the results depend on the processing

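In every alternative run, orc-2 was higher in hrde-2 mutants (log2 fold change 1.65 to 1.91) and alh-2 higher in hrde-1 mutants (1.14 to 1.65), and neither orc-2 in hrde-1 mutants (0.33 to 0.79) nor alh-2 in hrde-2 mutants passed the test. The last value ran from -0.22 to 0.28 when a library was left out, going below 0 without wild-type replicate 3 (-0.22), hrde-2 replicate 1 (-0.00) or hrde-2 replicate 2 (-0.04). Counts of calls moved more. Genes higher in hrde-2 mutants numbered 53, and 99 with total counts, 223 with TMM on the 10% of genes with most counts per kb, 4 after thinning, and 29 to 92 leaving out a library. Genes lower numbered 89, and 34, 24 and 0 in the same order, 174 with no filter on low counts, and 21 to 158. With total counts and that TMM the median gene in hrde-2 mutants moved to log2 values of 0.10 and 0.17. Genes higher in hrde-1 mutants numbered 54, and 35 in DESeq2, 90 with no filter, 0 after thinning (which left 1470699 counts a library), and 16 to 151. Genes lower numbered 164, and 89 with that TMM, 7 after thinning, and 70 to 180. The causes were not tested.

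The replicate numbers were not taken as pairs, since the deviations of same-numbered libraries correlated at only -0.05 to 0.12. With them as a replicate block orc-2 had 1.75 in hrde-2 mutants and alh-2 1.43 in hrde-1 mutants. In that fit 1 neighbour of orc-2 (gmps-1) was called in both mutants and 1 origin licensing gene (mcm-6) in hrde-2 mutants. Beyond the use of the 5 nearest tested genes, the settings for the neighbours and the gene lists were chosen after seeing the data. With no filter 1 neighbour of orc-2 (gmps-1), in both mutants, and 1 licensing gene were also called. Licensing genes called were 2 with total counts, 3 with that TMM, 1 in DESeq2, 1 with a minimum count of 50, and 0 to 2 leaving out a library. No neighbour of alh-2 in hrde-2 mutants and no alh gene besides alh-2 was called in any of these fits.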
